A study of Mus musculus with 6 samples.

Results

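The genes described here encode proteins of the mitochondrial ribosome. They were taken by symbol, as Mrpl or Mrps followed by a digit, which gave 77 of the 19938 genes measured, 48 with large subunit symbols and 29 with small subunit symbols. The study put soleus of male C57BL/6 mice aged 8 weeks on 6 Affymetrix 1.0 ST arrays. The groups, of 2 arrays each, were hindlimb suspension with electroacupuncture, hindlimb suspension alone, and control. The soleus is a slow, oxidative muscle of the calf that works against gravity. Suspension takes the body weight off the hind limbs, and electroacupuncture passes a current between acupuncture needles. The mice differed by no genetic change in the labels. The labels give neither the length of suspension nor the points stimulated, and nothing in them says that duplicate arrays stand for different animals, so the p-values measure the spread between arrays, which may be technical.

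The mitochondrial ribosome translates the few proteins that mitochondrial DNA encodes, all of them core subunits of the respiratory chain and the ATP synthase. Its ribosomal RNAs come from mitochondrial DNA, while its proteins are made in the cytosol from nuclear genes and imported. Some of these proteins have counterparts in bacterial ribosomes and others are found in mitochondria alone. In muscle the supply of respiratory chain subunits depends on both translation systems.

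Each value below is a log2 signal computed by the authors with RMA (background correction, quantile normalization and summarization), so that a difference of 1 is a 2-fold change. Array medians over all genes ran from 4.55 to 4.61. With 2 arrays a group, precision is limited by their number. As a measure of background, 1027 olfactory receptor genes had a 95th percentile of 3.5, and all 77 members had a mean above it. All 12 measured markers of skeletal muscle, among them Acta1, Ckm and Myh7, also lay above it, and their mean signal was 11.16 to 11.75 on the 6 arrays. Signals of different genes are not set against each other, because their probes differ in brightness. The arrays hold RNA of the whole muscle, in which fewer cells of a type and less RNA per cell cannot be told apart.

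The comparison of suspension with control asked how unloading altered the muscle. The members lay lower in suspended soleus than in control soleus as a group, mostly by small amounts. The median difference was -0.26 (1.19-fold) for the 48 large subunit genes and -0.18 (1.14-fold) for the 29 small subunit genes, against 0.01 for all 19938 genes. Of the large subunit genes 42 had a difference below 0, and of the small subunit genes 25 did, against 48.9% of all genes. One member, the large subunit gene Mrpl45, fell at an adjusted p under 0.05 (limma over all genes, Benjamini-Hochberg), where 0.512% of all genes were called lower, 0.537% higher and 1.05% in either direction. At an unadjusted p under 0.05, 15 large and 5 small subunit genes were lower and 0 were higher, against 6.09% and 6.63% of all genes. In 29 large and 12 small subunit genes both suspension arrays lay below both control arrays, against 18.5% of all genes. The reverse held for 1 member, Mrps12, against 21.3% of all genes. Genes at or above the median of all gene means, 9969 in all, hold 76 of the members and were called more often than all genes. Of these 9969 genes 93 were called lower and 103 higher, and 957 were lower and 1045 higher at an unadjusted p under 0.05. In 2183 of them both suspension arrays lay below both control arrays, and in 2541 above. Their share below 0 was 47.3%.

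**Figure D1:**
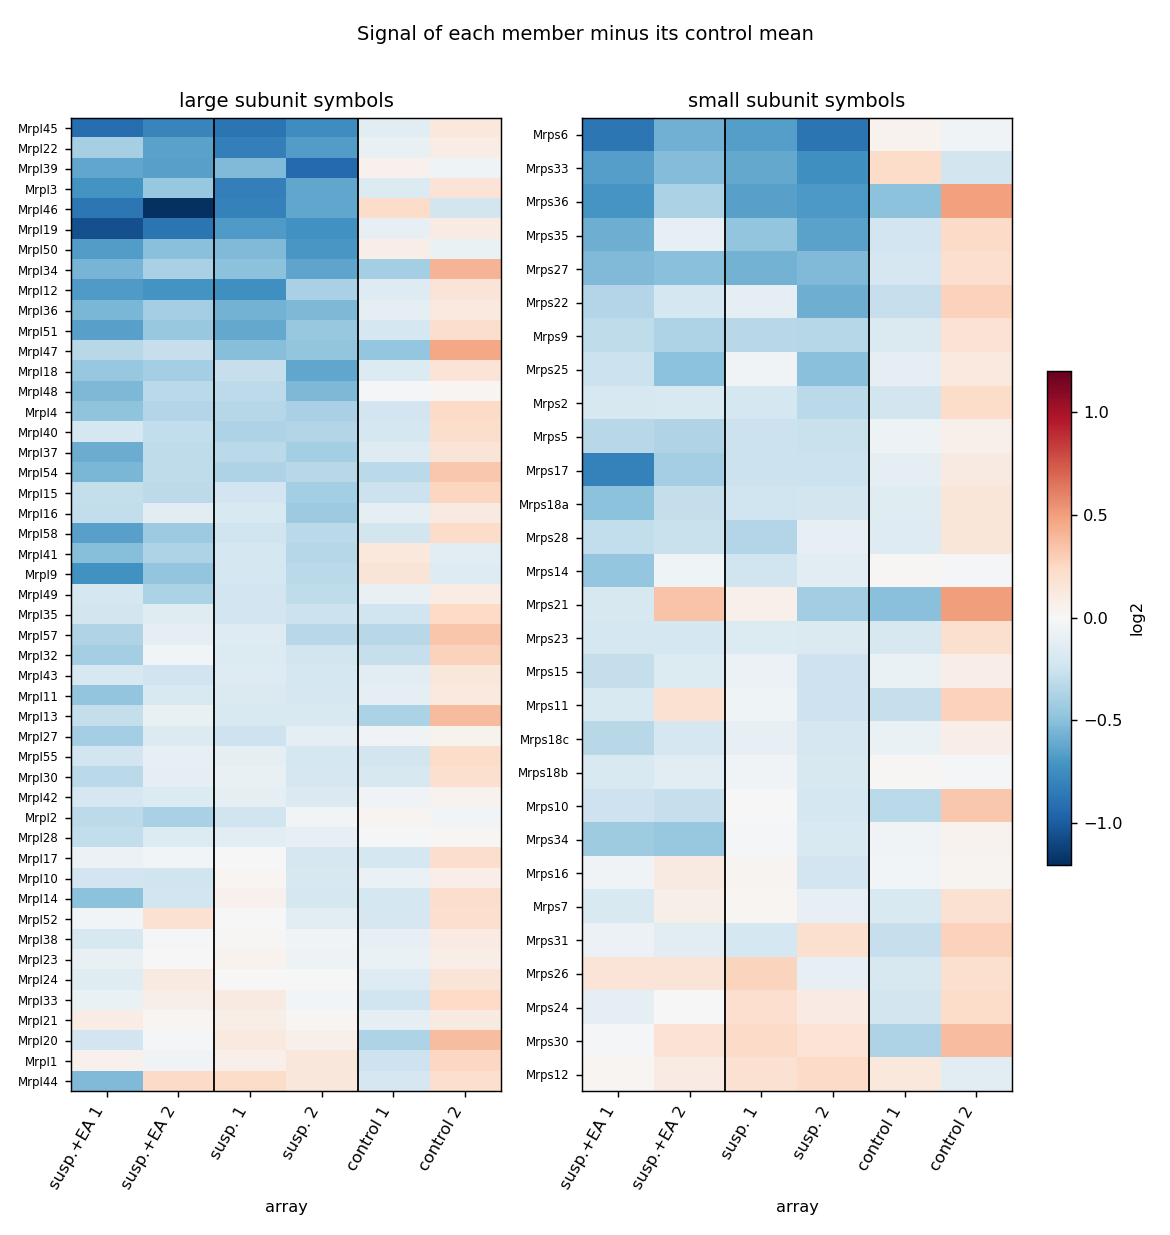
Signal of each of the 77 members on each of the 6 arrays, minus the mean of the 2 control arrays for that gene (log2, colour scale). Rows are genes, ordered by the suspension minus control difference, and columns are arrays grouped as suspension with electroacupuncture, suspension and control. Most rows are blue in the 4 suspended arrays, and control array 2 is higher than control array 1 in 66 of 77 rows.

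Among the large subunit genes Mrpl45 had the lowest difference and the smallest p-value in limma. Mrpl22 (-0.75), Mrpl39 (-0.73), Mrpl3 (-0.72), Mrpl46 (-0.72) and Mrpl19 (-0.70) were close to it in size. The product of Mrpl45 is a mitochondria-specific protein at the exit of the nascent chain, where the ribosome meets the inner membrane. Its signals were 5.44 and 5.57 on the suspension arrays and 6.19 and 6.45 on the control arrays. The groups did not overlap, and the gap between them was wider than that between the arrays of either group. The difference was -0.81 ± 0.15 (SE), which is 1.75-fold, with an adjusted p of 0.0474. The call was close to the threshold. Over 17 alternative settings the adjusted p ran from 0.0338 to 0.217, and it was over the threshold without control array 2 (0.09), without suspension array 1 (0.217) or 2 (0.16), and without electroacupuncture array 1 (0.123) or 2 (0.124).

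The next large subunit genes by p-value were Mrpl19, Mrpl22 and Mrpl39, none of which passed. Mrpl19, the counterpart of a bacterial protein at the subunit interface, had signals of 5.78 and 5.72 in suspension against 6.35 and 6.55 in control. Its difference was -0.70 ± 0.14 (SE, limma adjusted p = 0.071). Mrpl22, whose bacterial counterpart lines the exit tunnel, had 4.93 and 5.08 in suspension against 5.67 and 5.84 in control. Neither gene had overlapping groups. The difference of Mrpl22 was -0.75 ± 0.16 (limma adjusted p = 0.0731). Mrpl39, a mitochondria-specific subunit, had 7.59 and 7.18 in suspension against 8.17 and 8.06 in control, a difference of -0.73 ± 0.16 (limma adjusted p = 0.0763). Its 2 suspension arrays differed from each other more than its control arrays did, and all 4 values kept the groups apart.

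Mrpl46, a mitochondria-specific large subunit gene, and Mrpl12, the counterpart of the bacterial stalk protein that binds elongation factors, lay lower as well without passing. Mrpl46 had 6.08 and 6.26 in suspension against 7.11 and 6.68 in control, a difference of -0.72 ± 0.19 (limma adjusted p = 0.124). Mrpl12 had 7.51 and 7.87 in suspension against 8.10 and 8.40 in control, a difference of -0.56 ± 0.16 (limma adjusted p = 0.171). In both genes the lower control array stayed above the higher suspension array. At the other end, Mrpl23 had 9.72 and 9.61 in suspension against 9.60 and 9.75 in control, and Mrpl44, which belongs to the RNase III family, ran from 4.67 to 5.43 over the 6 arrays. The groups overlapped in both genes, and the difference of Mrpl44 was the highest of the large subunit genes at 0.18.

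None of the 29 small subunit genes passed in limma, and 5 had an unadjusted p under 0.05. The nearest was Mrps6, whose bacterial counterpart sits on the platform of the small subunit. Its signals were 6.65 and 6.44 in suspension against 7.35 and 7.28 in control. The gap between the groups was wider than the spread in either, with a difference of -0.77 ± 0.15 (limma adjusted p = 0.0588). Mrps33, a mitochondria-specific subunit, had 7.49 and 7.37 in suspension against 8.32 and 7.88 in control, a difference of -0.68 ± 0.17 (limma adjusted p = 0.107). Mrps27, a pentatricopeptide repeat protein, had 5.33 and 5.37 in suspension against 5.71 and 6.10 in control, a difference of -0.55 ± 0.16 (limma adjusted p = 0.18). Mrps35, another mitochondria-specific subunit, had 6.04 and 5.87 against 6.28 and 6.75 in control, a difference of -0.56 ± 0.21 (limma adjusted p = 0.299). In Mrps27 and Mrps35 the suspension arrays lay close together, and the control arrays lay further apart.

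Mrps12, the counterpart of the bacterial protein of the decoding centre, was the small subunit gene with the highest difference. It had 4.64 and 4.68 in suspension against 4.58 and 4.32 in control, a difference of 0.21 with an unadjusted p of 0.22 in limma. Its mean signal was the one below the median of all gene means, 4.58. The paralogues Mrps18a, Mrps18b and Mrps18c encode related proteins, of which the product of Mrps18a is placed in the large subunit by ribosome structures. Their differences were -0.23 ± 0.15, -0.12 ± 0.12 and -0.15 ± 0.13, with limma adjusted p of 0.591, 0.777 and 0.73. In each of the 3 both suspension arrays lay below both control arrays, but the mean difference was smaller than the largest gap between arrays of a group. Mrps30, which structures also place in the large subunit, had 5.22 and 5.16 in suspension against 4.62 and 5.36 in control.

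**Figure D2:**
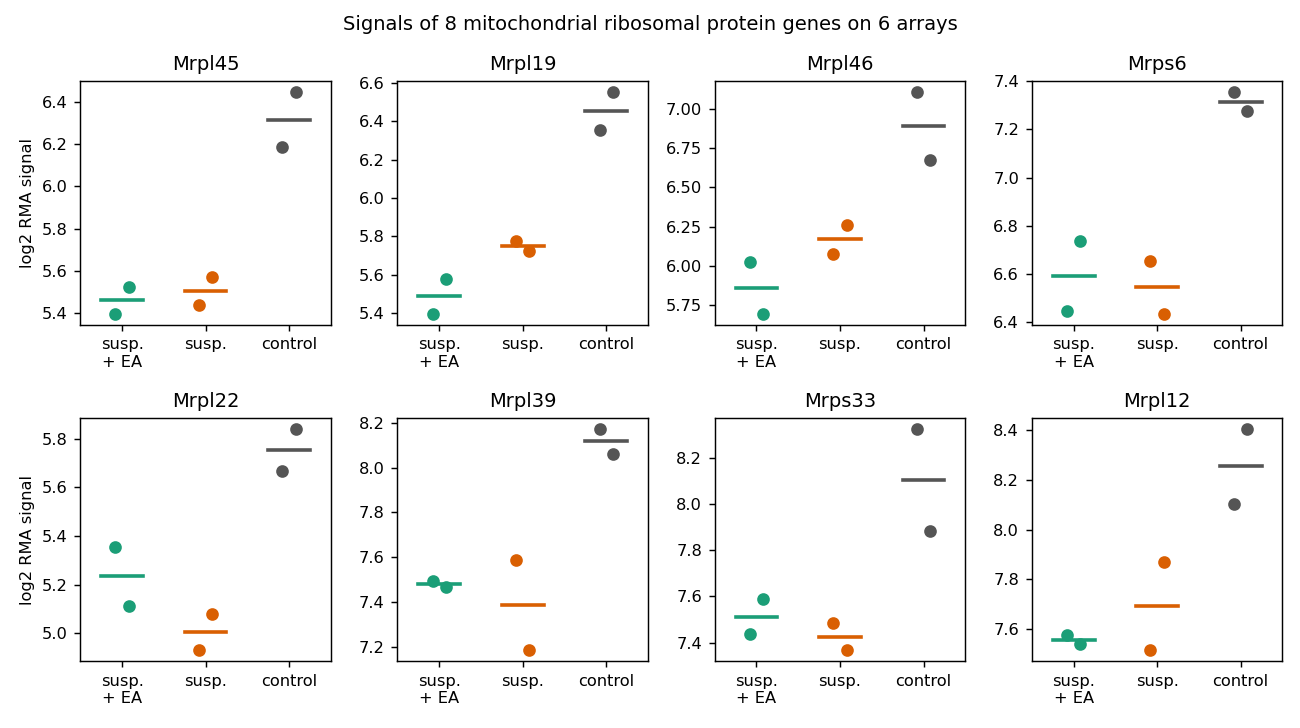
Log2 RMA signals of 8 members on the 6 arrays, with a point for each array and a bar for the mean of the 2 arrays of suspension with electroacupuncture, suspension and control. In all 8 genes the 4 suspended arrays lie below both control arrays, and each panel has its own vertical scale.

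A description by origin, made after the values were seen and not tested, gave medians of -0.28 for 19 large subunit genes specific to mitochondria and -0.18 for 29 with bacterial counterparts. For the small subunit they were -0.27 for 11 genes specific to mitochondria and -0.17 for 18 with bacterial counterparts. The quartiles were -0.48 and -0.18 for the first of these groups, -0.45 and -0.08 for the second, -0.55 and -0.05 for the third and -0.25 and -0.11 for the fourth, and overlapped within each subunit. One of the small subunit genes counted here, Mrps36, encodes a protein that has since been assigned to the α-ketoglutarate dehydrogenase complex.

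The control arrays differed from each other across the members. The median gap of control array 2 over control array 1 was 0.30, larger than the median difference of all members between suspension and control, which was -0.22. The largest gaps were in Mrps21, with 9.28 and 10.29 on control arrays 1 and 2, and in Mrps36, with 5.77 and 6.75. Measured against the control mean, the average of the large subunit genes was -0.26 and -0.31 on suspension arrays 1 and 2 and -0.15 and 0.15 on control arrays 1 and 2. For the small subunit genes it was -0.16 and -0.27 in suspension and -0.16 and 0.16 in control. The small subunit average of suspension array 1 was thus level with control array 1. Without control array 1 the medians were -0.43 and -0.37 for the large and small subunit, and 76 of 77 members were below 0, against 45.1% of all genes in that fit. Without control array 2 they were -0.08 and -0.07, and 51 of 77 members were below 0, against 51.1% of all genes in that fit. Each of these fits rests on 1 control array. Mrps33, in which control array 2 was the lower one, differed by -0.90 without that array, and Mrpl45 by -0.68.

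Marker lists of the cell types a soleus sample can hold are given beside these values, and those of adipocytes showed the widest gap between the control arrays. All 7 adipocyte markers were lower in suspension than in control, none of them called. Their average was -0.54 and -0.78 from the control mean in suspension and -0.84 and 0.84 on control arrays 1 and 2, and their summed linear signal was 1094 and 1011 in suspension against 999 and 2378 in control. The 12 skeletal muscle markers averaged -0.36 and -0.34 in suspension against -0.13 and 0.13 in control. Of these, 9 had a difference below 0 and 3 above. In limma 1 was called lower, and at an unadjusted p under 0.05, 5 were lower and 3 higher. Their summed signals were 48731 and 47900 in suspension against 46611 and 55766 in control. The 10 macrophage markers averaged 0.52 and -0.16 in suspension against -0.17 and 0.17 in control, with summed signals of 998 and 549 against 485 and 674. The 10 fibroblast and tendon markers averaged -0.59 and -1.25 in suspension, with both control arrays at 0.00, and 3 of the 10 were called lower. They went both ways, with 7 differences below 0, down to -2.48 in Chad, and 3 above, up to 0.53 in Lum. Their summed signals were 4338 and 3551 in suspension against 5062 and 5058 in control. No marker of these lists lay at or below the background level of 3.5. The part of cell composition in the lower signals of the members was not tested.

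The comparison of suspension with electroacupuncture against control shares its control arrays with the one above and is given beside it. The medians were -0.30 for the large subunit and -0.26 for the small subunit, against 0.01 for all genes, and 45 of 48 and 24 of 29 members had a difference below 0, against 49.0% of all genes. Of the large subunit genes 3 fell, Mrpl19, Mrpl45 and Mrpl46, and 0 members rose, where 0.587% of all genes were called lower, 0.446% higher and 1.03% in either direction. At an unadjusted p under 0.05, 18 large and 7 small subunit genes were lower and 0 were higher, against 6.34% and 6.47% of all genes. In 28 large and 15 small subunit genes both electroacupuncture arrays lay below both control arrays, against 20.0% of all genes, and in 0 they lay above both, against 21.8%. Of the 9969 genes at or above the median of all gene means, 110 were called lower and 84 higher. At an unadjusted p under 0.05, 1000 of them were lower and 932 higher. Both electroacupuncture arrays lay below both control arrays in 2530 of them and above in 2474, and 49.4% had a difference below 0.

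Mrpl19 had signals of 5.40 and 5.58 in the electroacupuncture group against 6.35 and 6.55 in control. All 4 values kept the groups apart, with a difference of -0.97 ± 0.14 (SE), 1.95-fold, and a limma adjusted p of 0.0226. It was called in 13 of 17 settings, with an adjusted p from 0.0145 to 0.248, and lost it without either electroacupuncture array (0.248 and 0.145), without control array 2 (0.0504) and with every cluster tested by itself (0.137). Mrpl46 had 6.02 and 5.70 against 7.11 and 6.68 in control, a difference of -1.03 ± 0.19, 2.04-fold (limma adjusted p = 0.0409). Mrpl45 had 5.40 and 5.52 against 6.19 and 6.45 in control, a difference of -0.85 ± 0.15, 1.81-fold (limma adjusted p = 0.04). These 2 genes were called in 8 of 17 settings each, with adjusted p from 0.0292 to 0.317 for Mrpl46 and from 0.0282 to 0.351 for Mrpl45. Both calls were lost without either electroacupuncture array and without either suspension array, and Mrpl46 also lost its call without control array 1 (0.106) and Mrpl45 without control array 2 (0.078).

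Mrpl12 had 7.57 and 7.54 in the electroacupuncture group against 8.10 and 8.40 in control, a difference of -0.70 ± 0.16 (limma adjusted p = 0.102). Of the small subunit genes, Mrps6 had 6.45 and 6.74 against 7.35 and 7.28 in control, a difference of -0.72 ± 0.15 (limma adjusted p = 0.0688). Mrps33 had 7.44 and 7.59 against 8.32 and 7.88 in control, a difference of -0.59 ± 0.17 (limma adjusted p = 0.161). None of the 3 had overlapping groups. Mrps17, whose bacterial counterpart binds ribosomal RNA, had 5.42 and 5.83 against 6.13 and 6.35 in control, a difference of -0.61 ± 0.17 (limma adjusted p = 0.161). Mrps34, a mitochondria-specific subunit, had 6.15 and 6.11 against 6.53 and 6.61 in control, a difference of -0.44 ± 0.13 (limma adjusted p = 0.198). The paralogues Mrps18a, Mrps18b and Mrps18c differed by -0.39 ± 0.15, -0.16 ± 0.12 and -0.26 ± 0.13 (limma adjusted p = 0.307, 0.694 and 0.47).

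The gap between the control arrays touched this comparison too. Without control array 1 the medians were -0.46 for the large and -0.41 for the small subunit, and without control array 2 they were -0.14 and -0.11. Mrpl46 differed by -0.82 without control array 1. Without control array 2, Mrpl19 differed by -0.87, Mrps33 by -0.81 and Mrpl45 by -0.72. The average of the large subunit genes was -0.40 and -0.28 from the control mean on electroacupuncture arrays 1 and 2, and that of the small subunit genes -0.32 and -0.18. On those arrays the skeletal muscle markers averaged -0.45 and -0.19, with 2 of 12 called lower, 9 differences below 0 and 3 above. The adipocyte markers averaged -0.17 and -0.28 and the macrophage markers 0.69 and 0.40. The fibroblast and tendon markers averaged -0.78 and -0.64, with 3 called lower, 7 differences below 0 and 3 above, up to 0.45 in Dcn. Their summed signals were 4938 and 5052, against 5062 and 5058 in control. The 6 endothelial markers, all with a difference below 0 and 1 called lower, averaged -0.39 and -0.47. What share of the members' differences goes with these was not tested.

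**Figure D3:**
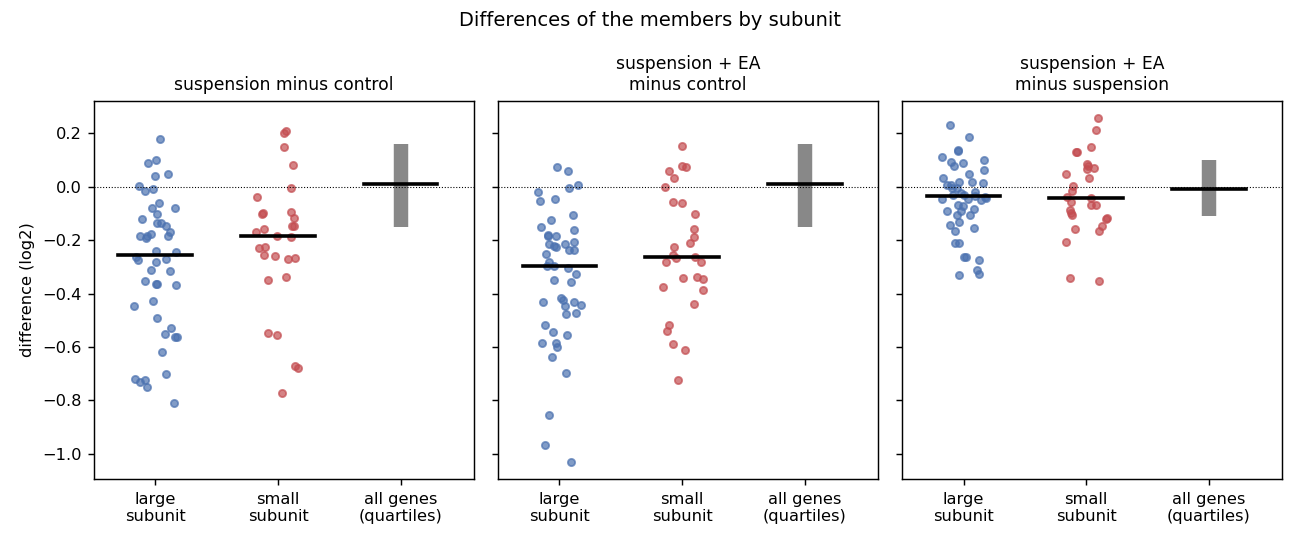
Differences (log2) of the 48 large and 29 small subunit genes in each comparison, with a point for each gene and a black bar for the median, beside the quartiles (grey) and the median of all 19938 genes. The medians of both subunits lie from -0.30 to -0.18 in the comparisons with control and at -0.04 between the electroacupuncture group and suspension.

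The comparison of suspension with electroacupuncture against suspension alone asked whether treatment altered the unloaded muscle. No member passed, and limma called 0 of 19938 genes (0%) here, so that the count says nothing particular about the members. The median was -0.04 for either subunit, against -0.01 for all genes, and 48 of 77 members had a difference below 0, against 51.6% of all genes. One member, Mrps34, had an unadjusted p under 0.05 and was lower, and 0 were higher, against 1.50% and 1.56% of all genes. Both electroacupuncture arrays lay below both suspension arrays in 20 members, against 17.1% of all genes, and above them in 5 members, against 15.4%. Of the 9969 genes at or above the median of all gene means, 55.7% had a difference below 0. In 1920 of these both electroacupuncture arrays lay below both suspension arrays, and in 1360 above. None of the 17 alternative settings called a member. Of the markers, 9 of 10 for macrophages (median 0.39) and 6 of 7 for adipocytes (median 0.42) had a difference above 0, and 6 of 6 for endothelium (median -0.33) had one below 0. None of these was called, as no gene was. At an unadjusted p under 0.05 in limma 3 endothelial markers were lower, against 1.50% of all genes, and 0 macrophage or adipocyte markers differed. Both electroacupuncture arrays lay below both suspension arrays in all 6 endothelial markers, against 17.1% of all genes. They lay above in 2 macrophage and 5 adipocyte markers, against 15.4%, and below in 0 and 1. The part of these markers in the members' values was not tested.

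The intervals limit what could have been missed as far as the spread between arrays goes, which may be technical. They hold for each gene by itself, are not adjusted for the number of genes, and need not cover differences between animals. The 95% interval of the difference held 0 for 76 of 77 members. For 47 members it lay within 0.5 of 0 on either side, and for all 77 within 1, which is a 2-fold change, so that these arrays leave room for small changes in either direction. Mrps34 had 6.15 and 6.11 in the electroacupuncture group against 6.56 and 6.38 in suspension, a difference of -0.34 with a 95% interval from -0.64 to -0.04. Its unadjusted p was 0.032 and its adjusted p 1 in limma. Mrps17 had 5.42 and 5.83 against 5.98 and 5.98 in suspension, a difference of -0.35 ± 0.17. In both genes the groups did not overlap.

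Of the large subunit genes, Mrpl9, the counterpart of a bacterial protein that reaches out from the ribosome, had 5.74 and 5.99 in the electroacupuncture group against 6.25 and 6.14 in suspension, a difference of -0.33 ± 0.16 (limma adjusted p = 1). Mrpl19 had 5.40 and 5.58 against 5.78 and 5.72, a difference of -0.26 ± 0.14, and Mrpl46 had 6.02 and 5.70 against 6.08 and 6.26, a difference of -0.31 ± 0.19. In these 3 genes the electroacupuncture arrays were the lower ones, by less than the test could call. Mrpl2, whose bacterial counterpart lies beside the peptidyl transferase centre, differed by -0.21 ± 0.14. Mrpl45 differed by -0.04 ± 0.15, with an interval from -0.39 to 0.30, and Mrpl12 by -0.13 ± 0.16. Mrps24, the counterpart of bacterial S3, differed by -0.21 ± 0.16, and Mrps18a, Mrps18b and Mrps18c by -0.16 ± 0.15, -0.04 ± 0.12 and -0.12 ± 0.13. The median of the large subunit was 0.03 without electroacupuncture array 1 and -0.11 without electroacupuncture array 2.

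The arrays of a group differed most in a few members. On electroacupuncture arrays 1 and 2, Mrpl44 had 4.67 and 5.43 and Mrps21 had 9.59 and 10.13. On suspension arrays 1 and 2, Mrps21 had 9.84 and 9.36 and Mrps22, a mitochondria-specific small subunit gene, had 6.34 and 5.87. Mrps21, which encodes a small counterpart of a bacterial protein, thus varied in every group, and its difference between suspension and control was within that spread. Signals over the 6 arrays ran from 8.26 to 9.11 for Mrpl51, from 7.96 to 8.66 for Mrpl14 and from 5.34 to 5.81 for Mrpl33 of the large subunit. For the small subunit they ran from 8.40 to 8.77 for Mrps15 and from 5.22 to 5.68 for Mrps26. These genes were chosen by signal alone. Each stayed within 1 unit over all arrays, a range that can still hold a difference between groups. For suspension minus control they differed by -0.53 (Mrpl51), -0.08 (Mrpl14), 0.04 (Mrpl33), -0.16 (Mrps15) and 0.08 (Mrps26). In Mrpl51 both suspension arrays lay below both control arrays (limma adjusted p = 0.202). Across the members the SD of the gap between duplicate arrays was 0.178 in the electroacupuncture group, 0.169 in suspension and 0.298 in control, against 0.251, 0.293 and 0.357 over all genes.

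For 8 members the array held a second transcript cluster with the same symbol, and the brighter one was used. The 2 clusters of a gene can share transcripts, so that related gene copies cannot be told apart. For suspension minus control the clusters went the same way in Mrps33 (-0.68 and -0.60), Mrps36 (-0.67 and -0.67), Mrps5 (-0.26 and -0.22), Mrpl51 (-0.53 and -0.81), Mrpl27 (-0.18 and -0.22) and Mrpl23 (-0.01 and -0.02). They differed in sign in Mrpl41 (-0.28 and 0.03) and Mrpl47 (-0.49 and 0.24), and in Mrpl47 also for the electroacupuncture group minus control (-0.31 and 0.50). For the electroacupuncture group minus suspension, Mrpl27 had -0.10 and 0.10. The direction of Mrpl41, Mrpl47 and Mrpl27 therefore depends on the cluster in those comparisons.

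Other genes of mitochondrial translation are given for comparison. Among 4 further ribosomal protein genes with other symbols none passed in any comparison, and 1 was lower at an unadjusted p under 0.05 in suspension minus control. That gene, Ptcd3, which encodes a pentatricopeptide repeat protein of the small subunit, had 6.69 and 6.78 in the electroacupuncture group, 6.56 and 6.58 in suspension and 7.11 and 7.21 in control. It differed by -0.59 ± 0.13 between suspension and control (limma adjusted p = 0.0783). Dap3, a GTP-binding small subunit protein, had 6.89 and 6.93, 6.82 and 6.91, and 6.72 and 6.89 in the same groups, which lay close together.

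None of 26 genes of ribosome assembly and none of 18 translation factors passed in any comparison. At an unadjusted p under 0.05, 1 and 3 of them were lower in suspension minus control, against 6.09% of all genes, and 5 and 6 in the electroacupuncture group minus control, against 6.34%, with 0 higher. For the assembly genes in suspension minus control that is below the share over all genes. The medians were -0.01 and -0.21 for suspension minus control and -0.12 and -0.19 for the electroacupuncture group minus control. The nearest to the threshold was Mrm3, a methyltransferase of mitochondrial ribosomal RNA, with 5.35 and 5.22 in the electroacupuncture group against 5.94 and 6.16 in control (difference -0.76 ± 0.15, limma adjusted p = 0.0539). Tufm, the elongation factor that brings aminoacyl-tRNA to the ribosome, had 7.20 and 7.62 in the electroacupuncture group against 8.04 and 8.21 in control (difference -0.72 ± 0.17, limma adjusted p = 0.102). Its difference between suspension and control was -0.53 ± 0.17 (limma adjusted p = 0.217). Mterf4, which acts in large subunit assembly, had 4.18 and 4.13 in the electroacupuncture group against 4.65 and 4.70 in suspension (difference -0.52 ± 0.15, limma adjusted p = 1).

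Of 11 genes of mitochondrial DNA maintenance, transcription and RNA turnover none passed, with medians of 0.00 for suspension minus control and -0.17 for the electroacupuncture group minus control. Supv3l1, a helicase of mitochondrial RNA turnover, had 5.43 and 5.50 in suspension against 6.11 and 6.20 in control (difference -0.69 ± 0.13, limma adjusted p = 0.0571). Tfam, which packages mitochondrial DNA and activates its transcription, had 4.66 and 4.92 in the electroacupuncture group against 5.24 and 5.31 in control (difference -0.49 ± 0.19, limma adjusted p = 0.325). Of 23 protein import genes none passed, with medians of -0.15 in both comparisons with control. Timm8a1, a chaperone between the mitochondrial membranes, differed by -0.80 ± 0.17 between suspension and control (limma adjusted p = 0.0763).

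Among 11 regulators of mitochondrial biogenesis, 2 fell and 0 rose in either comparison with control. Over all genes 0.512% were called lower in suspension minus control and 0.587% in the electroacupuncture group minus control. At an unadjusted p under 0.05 in limma, 2 of the 11 were lower and 1 higher in either comparison. Differences above 0 were seen in 4 regulators for suspension and 2 for the electroacupuncture group, the highest in Myc (0.78 and 0.71). Ppargc1a, the coactivator PGC-1alpha, had 7.86 and 7.57 in the electroacupuncture group, 7.50 and 7.65 in suspension and 8.79 and 9.49 in control. Its difference was -1.42 ± 0.22 for the electroacupuncture group minus control (limma adjusted p = 0.0252) and -1.56 ± 0.22 for suspension minus control (limma adjusted p = 0.0189). Ppara, a nuclear receptor of fatty acid metabolism, had 6.35 and 6.23, 6.30 and 6.36, and 7.23 and 7.70 in the same groups, and also fell (limma adjusted p = 0.0205 and 0.0234). With either suspension array left out, the adjusted p for suspension minus control was 0.124 and 0.0913 for Ppargc1a and 0.132 and 0.117 for Ppara. With either electroacupuncture array left out, that for the electroacupuncture group minus control was 0.144 and 0.217 for Ppargc1a and 0.16 and 0.198 for Ppara. Leaving out suspension array 2 also took Ppargc1a in the electroacupuncture group minus control to 0.0502, and leaving out either electroacupuncture array took Ppara in suspension minus control to 0.0687. The DNA-binding activator Nrf1 had 5.26 and 5.14, 5.53 and 5.27, and 5.02 and 5.52 in the same groups, which overlapped between suspension and control.

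**Figure D4:**
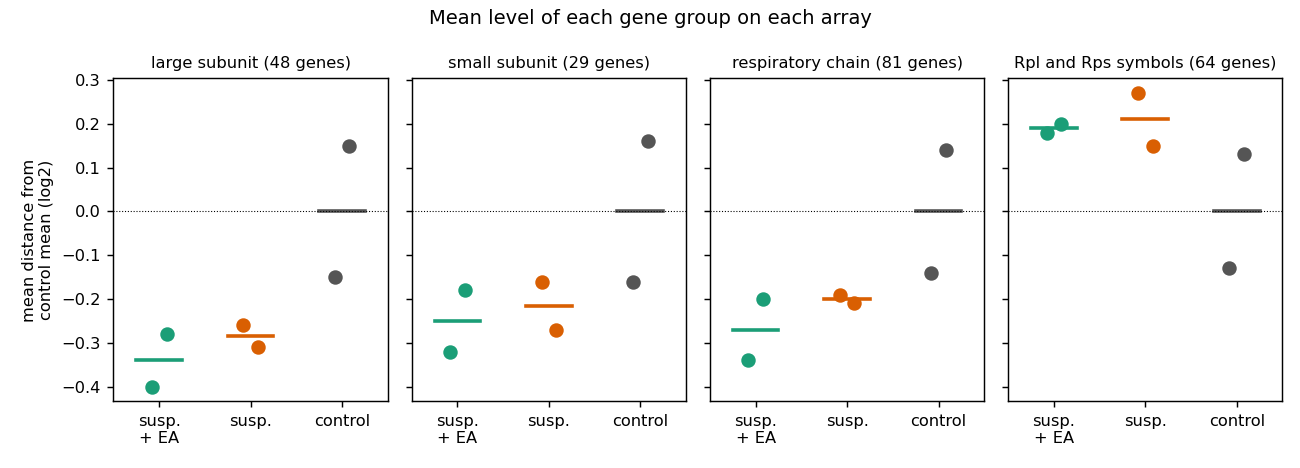
Mean over the genes of a group of the signal minus its control mean (log2), with a point for each array and a bar for the mean of the 2 arrays, for suspension with electroacupuncture, suspension and control. The groups are the 48 large and 29 small subunit genes, 81 respiratory chain genes and 64 genes with Rpl or Rps symbols, and in each of them control array 2 lies above control array 1.

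Nuclear genes of the respiratory chain, whose products assemble with those the mitochondrial ribosome makes, also lay lower than in control. The 81 respiratory chain genes had medians of -0.29 for the electroacupuncture group minus control and -0.20 for suspension minus control, with 73 and 70 differences below 0, against 49.0% and 48.9% of all genes. In suspension minus control 0 of them passed, and 19 were lower at an unadjusted p under 0.05, against 6.09% of all genes. In the electroacupuncture group minus control 1 fell, against 0.587% of all genes called lower. That gene, Ndufc1, a subunit of complex I, had 8.91 and 9.01 in the electroacupuncture group against 9.67 and 9.59 in control (limma adjusted p = 0.043). The 64 genes with Rpl or Rps symbols, nearly all of them proteins of the cytosolic ribosome, had medians of 0.17 and 0.19, with 11 and 8 differences below 0, against the same shares of all genes, and 0 passed in limma. At an unadjusted p under 0.05, 9 and 12 of these were higher, against 6.47% and 6.63% of all genes, and 1 and 0 were lower. On the suspension arrays their average was 0.27 and 0.15 from the control mean, where the large subunit genes of the mitochondrial ribosome were at -0.26 and -0.31. The difference between these groups of genes was not tested.

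The promoters of the members were searched for short motifs as a description, and a link of the motifs to the lower signals was not tested. RefSeq (GRCm38.p6) gave a window from 250 bases before to 50 after the start for 68 members, of which the first listed was taken. On either strand, 24 of 68 (35.3%) held CCGGAAG, the core letters bound by ETS factors such as GABP, against 9.12% of 27025 genes in the table. The letters GCATGCGC of the NRF1 site were in 8 (11.8%) against 2.80%, and AAGATGGCG of the YY1 site was in 8 (11.8%) against 1.49%. At least 1 of these 3 was in 34 members (50%) against 12.5% of all genes. GGGCGG, read by SP1 and KLF factors, was in 34 (50%) against 35.9%, and the TATA box letters TATAAA were in 4 (5.88%) against 14.2%. The median GC content of the windows was 58.2% for the members and 52.7% for all genes, and these shares were not adjusted for it. The ETS and YY1 letters can share the bases AAG, and the NRF1 letters can match both strands at overlapping places. Members with the ETS letters had a median difference of -0.18 between suspension and control, and those without had -0.22. For the NRF1 letters these medians were -0.15 and -0.21, and for the YY1 letters -0.24 and -0.19. Each site was searched in 1 spelling, so that members counted as without a site may hold it in other letters. The counts and the medians with and without are those of that spelling alone. A match describes letters in a window and shows no binding.

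The 4 windows below are shown for Mrpl45 and Mrpl46, which are 2 of the 3 called members, and for members near the threshold that hold the motif letters, Mrpl22 and Mrpl39. Each is written 5′ to 3′ on the strand of the gene, and capitals mark the ETS, NRF1 or YY1 letters. The other called member, Mrpl19, was not among the 68 matched.
Mrpl45 promoter, chr11:97315466-97315765, plus strand: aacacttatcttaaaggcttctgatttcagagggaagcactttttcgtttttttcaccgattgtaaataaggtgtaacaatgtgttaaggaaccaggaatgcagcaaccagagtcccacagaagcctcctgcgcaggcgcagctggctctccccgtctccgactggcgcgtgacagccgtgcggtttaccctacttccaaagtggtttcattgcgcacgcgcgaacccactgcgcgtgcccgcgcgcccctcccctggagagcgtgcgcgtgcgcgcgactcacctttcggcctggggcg
Mrpl46 promoter, chr7:78783040-78783339, minus strand: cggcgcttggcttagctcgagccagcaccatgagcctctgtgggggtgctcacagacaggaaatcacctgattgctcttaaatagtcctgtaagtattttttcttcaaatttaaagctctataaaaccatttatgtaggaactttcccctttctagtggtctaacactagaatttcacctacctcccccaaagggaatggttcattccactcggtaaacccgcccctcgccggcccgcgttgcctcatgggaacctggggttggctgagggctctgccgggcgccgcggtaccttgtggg
Mrpl22 promoter, chr11:58171414-58171713, plus strand: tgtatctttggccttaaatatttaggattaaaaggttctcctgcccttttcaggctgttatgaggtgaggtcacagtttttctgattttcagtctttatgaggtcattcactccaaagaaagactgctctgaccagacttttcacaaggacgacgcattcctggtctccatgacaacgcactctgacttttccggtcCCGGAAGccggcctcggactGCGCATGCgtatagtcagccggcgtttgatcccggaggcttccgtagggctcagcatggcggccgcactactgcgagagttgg
Mrpl39 promoter, chr16:84735195-84735494, minus strand: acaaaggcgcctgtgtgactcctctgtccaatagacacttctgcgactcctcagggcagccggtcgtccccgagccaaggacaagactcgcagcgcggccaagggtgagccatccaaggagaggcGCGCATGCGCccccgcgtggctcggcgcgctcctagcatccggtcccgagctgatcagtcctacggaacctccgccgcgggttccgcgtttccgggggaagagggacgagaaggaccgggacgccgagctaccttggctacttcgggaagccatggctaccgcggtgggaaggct
The windows of Mrpl45 and Mrpl46 hold none of the 3 motifs as spelled. The Mrpl45 window does hold gcacgcgc, which differs from the NRF1 letters only in having c for t. That spelling was not searched, so an NRF1 site in other letters is not excluded. In Mrpl22 the ETS letters begin 53 bases and the NRF1 letters 33 bases before the start. In Mrpl39 the NRF1 letters match on both strands, in overlapping runs that begin 125 and 123 bases before the start.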

How the data were processed

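Total RNA of 6 soleus samples was extracted with Trizol, labelled with biotin and hybridized to Affymetrix 1.0 ST arrays, per the labels. The deposited values are log2 signals computed by the authors with RMA in Affymetrix Expression Console, per the submitters' processing notes. Versions and a genome build are not given in the sources used here. Of 35556 transcript clusters, 21789 had 1 symbol in the platform annotation. The brightest cluster of each symbol was kept, 19938 genes in all, with no filter on signal. A cluster that lists Mrpl53 with another symbol was left out. The group means of 6 arrays were estimated in R 4.3.3 by limma 3.58.1, whose variance prior was let follow the mean signal (residual degrees of freedom 3, prior 5.88), and p-values were adjusted by Benjamini-Hochberg over all genes at 0.05. The fit was tested on simulated data. Values after ± are standard errors from limma.

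The members and the other gene lists were chosen with earlier results of these data known. Members were named where they passed in any comparison, as the 4 smallest p-values of each subunit and comparison, as the 3 highest and 3 lowest mean signals of a subunit, and as the 2 largest gaps between duplicate arrays of a group, beside Mrps18a, Mrps18b, Mrps18c and Mrpl12. Some of these are covered by the counts alone. Of the other lists, up to 2 genes of each comparison and Ppargc1a were named. Members with a second cluster were named after their values were seen, and the olfactory receptor background was likewise chosen then.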

Additional observations from a re-analysis of the deposited data

How the results depend on the processing

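Of 17 alternative settings, 6 leave out an array. In suspension minus control the number of called large subunit genes, 1 in the fit described, was 0 without a trend in the variance prior, with array weights, with every cluster tested by itself, with the compared groups fitted alone and with a block for replicate number. It was 3 with the filter at the median signal, 2 with quantile normalization again and 4 with cyclic loess, and 0 to 3 with an array left out. The number of small subunit genes, 0, was 1 with that filter, with quantile normalization again and with cyclic loess, and 0 to 1 with an array left out. In the electroacupuncture group minus control the number of large subunit genes, 3, was 1 without the trend, with the compared groups alone and with the replicate block, 0 with every cluster by itself, and 0 to 3 with an array left out, and that of small subunit genes, 0, was 0 to 1. With an array left out, the median ran from -0.43 to -0.08 (large) and -0.37 to -0.07 (small) for suspension minus control, from -0.46 to -0.14 and -0.41 to -0.11 for the electroacupuncture group minus control, and from -0.11 to 0.03 and -0.08 to 0.01 for the electroacupuncture group minus suspension. The other settings moved no median past the spread between duplicate arrays. With an array left out, the difference of the electroacupuncture group minus suspension changed sign in Mrpl45 (-0.11 to 0.02), Mrps18b (-0.11 to 0.03), Mrpl12 (-0.31 to 0.04) and Ppargc1a (-0.00 to 0.28, and -0.01 with the mean of all clusters), and that of Gadd45gip1 between suspension and control ran from -0.39 to 0.17. Beside these 7 reversals, 1163 values of named genes kept direction and side of the threshold, 49 lost a call and 19 gained one. Over all genes the count called, 209, 0 and 206 in suspension minus control, the electroacupuncture group minus suspension and that group minus control, ran from 1 to 301, 0 to 4 and 1 to 312. Some settings use fewer arrays or test more clusters, and the cause of these ranges was not tested. The labels do not say what a replicate number marks. Deviations of arrays with the same number correlated at -0.02 between the electroacupuncture group and suspension, 0.02 between that group and control, and -0.16 between suspension and control, over all genes, and at -0.17, 0.25 and -0.07 over the 77 members.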
